A study of Mus musculus with 2 samples.

Results

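The cells described here are thymus cells that held RNA of Bcl11b but none of Cd3g. Bcl11b encodes a zinc finger regulator of T-lineage commitment, and Cd3g encodes the CD3 gamma chain of the T-cell receptor complex. The cells were chosen by measured counts: they belong to the control sort, hold at least 3000 UMIs (unique molecular identifiers, each counted as 1 captured RNA molecule), at least 1 Bcl11b UMI and 0 Cd3g UMIs. This gave 826 Bcl11b+ Cd3g- cells, which were 25.4% of the 3250 control cells at that depth, of 3302 control cells and 8293 cell barcodes in all. Both genes, and the depth cut, are therefore part of the choice and are given as description.

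Early T-cell progenitors enter the thymus with a stem and progenitor programme that includes Spi1 (PU.1), Lmo2, Bcl11a and Mef2c, and lose it step by step under Notch signalling. At the DN2 stage they gain CD25, the interleukin 2 receptor alpha chain encoded by Il2ra, and the onset of Bcl11b marks commitment to the T lineage. CD3 chains, the recombination enzymes and the pre-T-cell receptor alpha chain Ptcra appear around and after that step, ahead of assembly of the receptor.

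All cells came from the thymus of C57BL/6 mice with the genotype Bcl11byfp/yfp, a fluorescent reporter allele on both copies of Bcl11b. The study sorted 4 fractions of Kit+ progenitors lacking CD25 and the Bcl11b reporter, split by Flt3, Ly6d and HSA, and 1 control gated only as Lin- 7AAD- Kit+, without a CD25 or reporter gate. Each sort carried its own hashtag antibody and all were pooled into 1 cDNA library, so there was 1 sort of each kind. No label states how many mice were used, their age or whether the reporter allele changes the capture of Bcl11b RNA.

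The control cells outside the choice were split by the same kind of rule into 580 Bcl11b+ Cd3g+ cells, 760 Il2ra+ Bcl11b- cells and 1084 Il2ra- Bcl11b- cells. UMIs were summed over the cells of a class and divided by the class total (as CPM, the usual counts scaled to a common total). Intervals in parentheses are 95% intervals for counting error alone: exact Poisson for CPM, exact Clopper-Pearson for shares and a binomial split for ratios. Cells of 1 sort are not replicates, so no test between classes was run, and higher and lower describe these cells only. A gene was counted when the higher class had at least 10 CPM with a UMI in at least 5% of cells and the ratio was at least 1.5. Genes linked to Bcl11b, Cd3g or Il2ra are drawn along by the way the classes were cut, so no ratio is independent of the choice. More RNA per cell and more cells with the RNA cannot be told apart in a sum.

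The Bcl11b+ Cd3g- cells were the deepest of the 4 classes. Their median was 18399 UMIs per cell (quartiles 14267.5 and 24261), against 16395.5 in Bcl11b+ Cd3g+, 15558.5 in Il2ra+ Bcl11b- and 14117 in Il2ra- Bcl11b- cells. Median genes per cell were 4195.5, 3906, 3807 and 3567 in the same order. Mitochondrial transcripts made up medians of 4.50 to 4.86% in the 4 classes. A deeper cell reaches 1 Bcl11b UMI more easily and 0 Cd3g UMIs less easily. When each cell was thinned to 3000 UMIs and sorted again, 506 of the 826 cells (61.3%) kept their class, 175 would count as Il2ra+ Bcl11b- and 145 as Il2ra- Bcl11b-. In the other direction 112 of the 580 Bcl11b+ Cd3g+ cells (19.3%) would join them. Doublets of 2 control cells carry 1 hashtag and were not called; from barcodes with 2 hashtags their number was estimated at 73.1, or 2.21% of control cells.

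Promoter sequences are shown for the 2 genes of the choice, for Cd3d, the partner of Cd3g that was likewise nearly silent, and for Cpa3 and Lat, which had a UMI in most of the cells. They are the 250 bases before the start of each gene in RefSeq (GRCm38.p6), 5' to 3' on the strand of the gene. The Bcl11b window is chr12:108003415-108003664 (minus strand), the Cd3g window chr9:44980432-44980681 (minus strand), the Cd3d window chr9:44981536-44981785 (plus strand), the Cpa3 window chr3:20242182-20242431 (minus strand) and the Lat window chr7:126369569-126369818 (minus strand). Capitals mark matches, on either strand, to the RUNX motif TGTGGT, the GATA-factor motif AGATAA, the ETS motif AGGAAG, the TCF motif TTCAAAG and the E box CANNTG; no match overlaps another.
Bcl11b promoter: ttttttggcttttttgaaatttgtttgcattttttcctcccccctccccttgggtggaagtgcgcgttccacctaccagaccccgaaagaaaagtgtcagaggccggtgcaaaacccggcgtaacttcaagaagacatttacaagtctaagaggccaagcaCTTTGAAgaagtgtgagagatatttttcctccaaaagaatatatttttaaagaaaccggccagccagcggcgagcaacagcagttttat
Cd3g promoter: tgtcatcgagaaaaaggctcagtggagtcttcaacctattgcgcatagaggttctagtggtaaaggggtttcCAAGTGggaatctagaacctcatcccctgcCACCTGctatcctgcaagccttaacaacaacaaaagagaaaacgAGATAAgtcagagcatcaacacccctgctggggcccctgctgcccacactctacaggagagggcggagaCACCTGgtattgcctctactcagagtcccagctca
Cd3d promoter: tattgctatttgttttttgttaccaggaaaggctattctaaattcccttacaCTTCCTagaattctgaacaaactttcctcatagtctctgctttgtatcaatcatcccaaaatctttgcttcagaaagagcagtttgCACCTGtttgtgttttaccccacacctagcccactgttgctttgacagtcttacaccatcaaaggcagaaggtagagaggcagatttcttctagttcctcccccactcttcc
Cpa3 promoter: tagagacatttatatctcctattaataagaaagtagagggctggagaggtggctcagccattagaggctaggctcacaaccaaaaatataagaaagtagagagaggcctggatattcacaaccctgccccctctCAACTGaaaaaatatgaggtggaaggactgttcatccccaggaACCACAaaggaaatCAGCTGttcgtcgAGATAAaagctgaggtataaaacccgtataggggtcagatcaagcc
Lat promoter: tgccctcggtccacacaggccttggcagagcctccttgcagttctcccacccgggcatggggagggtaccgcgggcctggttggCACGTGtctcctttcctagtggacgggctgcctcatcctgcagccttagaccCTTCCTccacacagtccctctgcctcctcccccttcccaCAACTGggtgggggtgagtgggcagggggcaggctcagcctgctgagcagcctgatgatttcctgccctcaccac

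Cd3g and Cd3d stand head to head on chromosome 9, with 1354 bases between their starts in GENCODE M21. The Cd3g window held 1 GATA and 3 E box matches, and the Cd3d window 1 ETS and 1 E box match. The Bcl11b window held a single TCF match, 89 bases before the RefSeq start. The mm10 gene position used elsewhere here puts the start of Bcl11b at 108003602 on chromosome 12, which lies inside this window. By that position the match lies within the gene and not before it. The Cpa3 window held 1 RUNX, 1 GATA and 2 E box matches, and the Lat window 1 ETS and 2 E box matches. Among 27025 promoter windows of this length, 14.2% held the RUNX letters, 10.3% GATA, 29.2% ETS, 4.64% TCF and 66.0% an E box. These are matches of letters, not mapped sites of binding.

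Bcl11b itself ranged from 1 to 40 UMIs per chosen cell, with a median of 5, and 136 cells held exactly 1. The summed level was 329 CPM (320 to 338) against 585 CPM in Bcl11b+ Cd3g+ cells. Il2ra, which was no part of the choice, had a UMI in 784 of the 826 cells (94.9%). Cpa3, a mast cell carboxypeptidase also found in early T progenitors, had one in 97.9%, and Lat, the adaptor that relays receptor signals, in 93.8%. All 3 were present together in 727 cells (88.0%), and 1 cell had none of them. At 3000 UMIs per cell, 23.2% of Bcl11b+ Cd3g- cells held all 3, against 13.8% of Bcl11b+ Cd3g+, 6.71% of Il2ra+ Bcl11b- and 0 of the 1084 Il2ra- Bcl11b- cells, where Il2ra is absent by definition. Cpa3 and Lat also had a UMI in 52.0% and 54.7% of Il2ra- Bcl11b- cells, at a median of 14117 UMIs, so a UMI of either alone does not set the chosen cells apart.

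**Figure D1:**
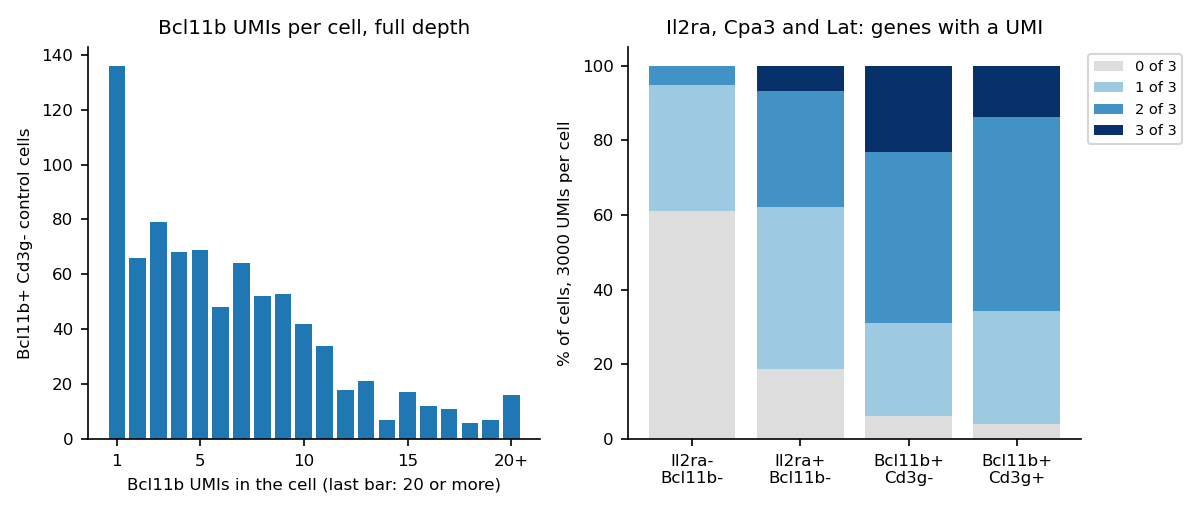
Left: number of Bcl11b+ Cd3g- cells (y axis) by Bcl11b UMIs in the cell (x axis, full depth, last bar 20 or more); the tallest bar is the 136 cells with exactly 1. Right: share of cells of each class, thinned to 3000 UMIs, with a UMI of 0, 1, 2 or all 3 of Il2ra, Cpa3 and Lat; all 3 were seen together most often, in 23.2%, in the Bcl11b+ Cd3g- cells.

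The same Bcl11b and Cd3g rule picked few cells in the 4 sorts gated against the reporter. It held for 7 of 1405 cells sorted as Flt3+ Ly6d- HSA- and 8 of 1176 sorted as Flt3+ HSA+. In the Flt3- sorts it held for 4 of 1160 that were Ly6d- HSA- and for 16 of 826 that were Ly6d+. These are 0.345 to 1.94% of cells, and the last sort was the highest. At 3000 UMIs per cell, 1.09% of Flt3- Ly6d+ cells (0.499 to 2.06) held a Bcl11b UMI, against at most 0.0862% in the other 3 gated sorts and 29.9% in the control. Bcl11b RNA was thus rare in the sorts that gated the reporter out.

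Receptor genes were among those with the largest gaps between the Bcl11b+ Cd3g- and Bcl11b+ Cd3g+ cells, classes that were themselves cut on Cd3g. Cd3d, the CD3 delta chain, had 8 UMIs in 8 of the 826 cells, 0.487 CPM (0.210 to 0.960), against 3302 UMIs and 344 CPM in Bcl11b+ Cd3g+ cells. Cd3e, the epsilon chain, stood at 2.07 CPM (1.43 to 2.89) against 164, with a UMI in 3.27% of cells against 68.6%. Ptcra was at 0.670 CPM against 76.1 and Rag1, a recombinase subunit, at 2.56 against 52.4. So the RNA of Cd3d, Cd3e and Ptcra was nearly missing in cells chosen for the absence of Cd3g. In mm10, Cd3g lies on chromosome 9 at 44969572 to 44980431, Cd3d at 44981786 to 44987339 and Cd3e at 44998740 to 45009627. The 2 classes without Bcl11b were not chosen on Cd3g, and a few of their cells held CD3 RNA: the 58 Cd3d UMIs of Il2ra+ Bcl11b- cells lay in 6 cells. The 748 of those cells that also lacked Cd3g had Cd3d at 0.0778 CPM, Cd3e at 0.156 and Ptcra at 0.622.

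RNA of other parts of the receptor and recombination list was present in the chosen cells. Cd247, the zeta chain, stood at 10.9 CPM in Il2ra- Bcl11b-, 14.1 in Il2ra+ Bcl11b-, 47.0 (43.8 to 50.5) in Bcl11b+ Cd3g- and 94.6 in Bcl11b+ Cd3g+ cells. Rag2, the second recombinase subunit, followed with 8.64, 7.59, 15.5 and 24.2 CPM in that order of classes. Dntt, which adds bases at receptor joints, was at 749, 331, 540 and 1117 CPM: lowest in Il2ra+ Bcl11b- cells and higher in the other 3 classes. Over Il2ra+ Bcl11b- cells, only these 3 of the 7 genes of this list outside the rule were measured. All 3 were higher (median log2 1.03), against 2.28% of all genes compared. Cd3d, Cd3e, Ptcra and Rag1 fell short of the level or share needed there. Against Bcl11b+ Cd3g+ cells all 7 were lower (median -4.36), against 4.05% of all genes. That class was cut on Cd3g, so genes that go with Cd3g are low in the chosen cells by the choice.

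Across all genes, 175 were higher than in Il2ra+ Bcl11b- cells (2.28% of 7686 compared) and 181 lower (2.35%). Against Bcl11b+ Cd3g+ cells, 202 were higher (2.63% of 7681) and 311 lower (4.05%). Against Il2ra- Bcl11b- cells the counts were 410 higher (5.27% of 7775) and 434 lower (5.58%). Against all 2424 other control cells together, a mixture of the 3 classes, they were 113 higher (1.47% of 7680) and 214 lower (2.79%). The median log2 ratio over all compared genes was 0.02 against Il2ra+ Bcl11b-, -0.003 against Bcl11b+ Cd3g+, 0.06 against Il2ra- Bcl11b- and 0.03 against all other control cells, and list medians below are read beside these.

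**Figure D2:**
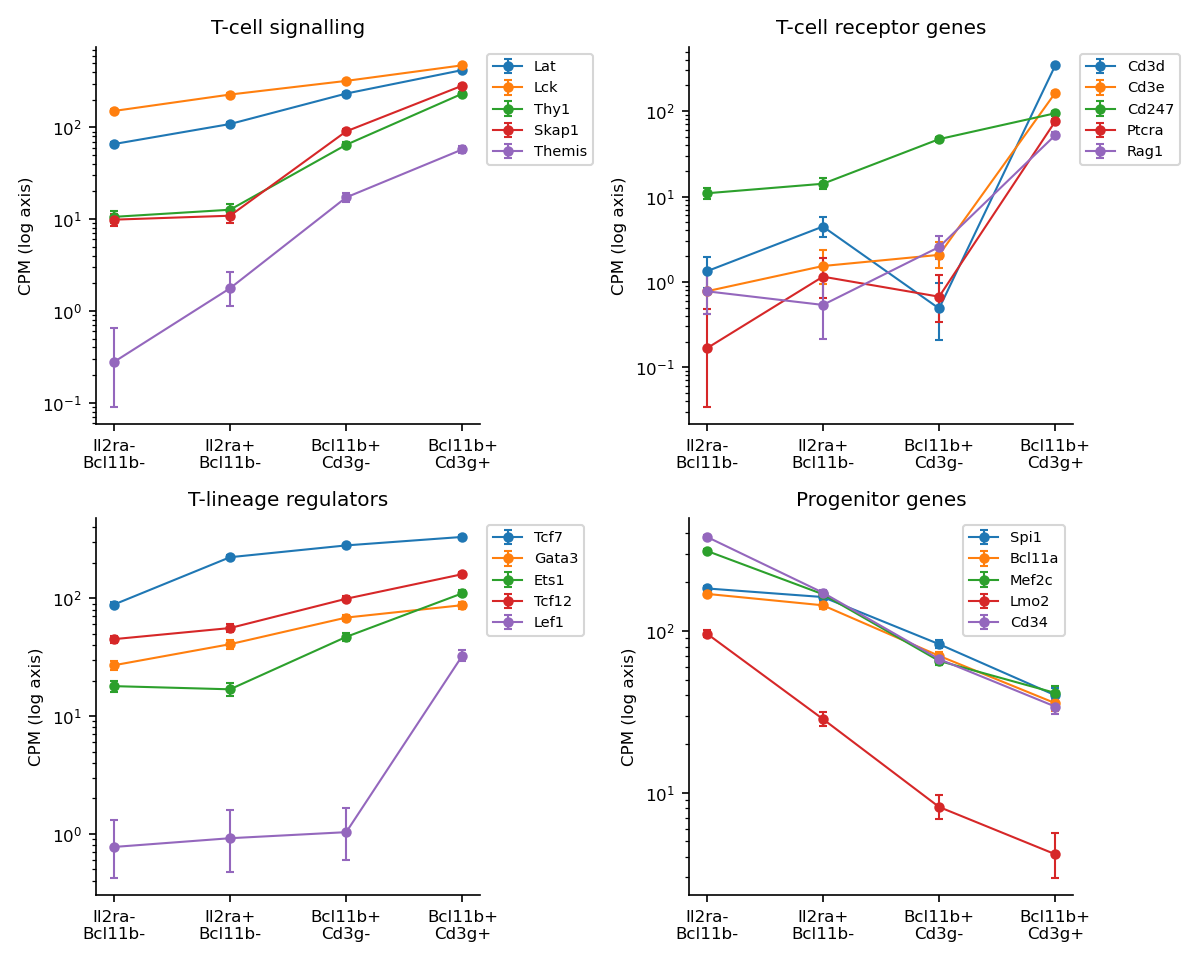
CPM (log axis, points with 95% Poisson intervals, counting error only) in the 4 classes of control cells on the x axis, from Il2ra- Bcl11b- to Bcl11b+ Cd3g+, which is an order by marker RNA and not by time. In the Bcl11b+ Cd3g- cells Lat (233 CPM) and Skap1 (90.4) lie between their neighbours, Cd3d (0.487) and Lef1 (1.04) are low, and Spi1 (82.8) and Lmo2 (8.16) are below the Il2ra+ Bcl11b- cells.

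Genes of proximal T-cell signalling, which pass the receptor signal inward, were compared with the Il2ra+ Bcl11b- cells first. Of 17 measured, 5 were higher and 1 lower, against 2.28% and 2.35% of all genes, with a median log2 ratio of 0.22 against 0.02. Skap1, an adaptor that links the receptor to integrins, stood at 10.9 CPM there and 90.4 in Bcl11b+ Cd3g- cells, 8.30-fold higher (6.99 to 9.93). Themis, needed for thymocyte selection, was 9.78-fold higher (6.39 to 15.7), from 1.76 to 17.2 CPM. Thy1, a surface glycoprotein of T cells, was 5.10-fold higher (4.33 to 6.05), from 12.7 to 64.6 CPM. Lat was 2.15-fold higher (2.02 to 2.29), from 109 to 233 CPM, and Plcg1, the phospholipase that binds it, stood at 14.7 and 28.8 CPM. The exception was Cd7, a surface antigen of early lymphoid cells, 3.33-fold lower (2.92 to 3.80). Against Bcl11b+ Cd3g+ cells 9 of 21 measured were lower and 2 higher, where 4.05% and 2.63% of all genes were. Skap1 was at 90.4 against 285 CPM and Thy1 at 64.6 against 233. Members of the list without such a gap include Lck, the receptor kinase, at 228, 321 and 474 CPM in Il2ra+ Bcl11b-, Bcl11b+ Cd3g- and Bcl11b+ Cd3g+ cells.

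T-lineage regulators act on the genes of the lineage from the nucleus. Over Il2ra+ Bcl11b- cells 5 of 15 measured were higher and none lower (median log2 0.33), against 2.28% and 2.35% of all genes. The 5 were Ets1, Ikzf2, Gata3, Tcf12 and Gfi1. Ets1, an ETS factor of maturing T cells, was at 17.9 CPM in Il2ra- Bcl11b-, 16.9 in Il2ra+ Bcl11b-, 47.0 in Bcl11b+ Cd3g- and 110 in Bcl11b+ Cd3g+ cells. Tcf12, the E protein HEB, was at 44.9, 55.8, 98.9 and 160 CPM, and Gata3, a driver of T-cell specification, at 27.0, 40.7, 68.5 and 87.3 CPM. Tcf7, which encodes the Notch target TCF1, had 88.2, 223, 280 and 331 CPM, with its largest step between the 2 Bcl11b- classes. Lef1, the relative of Tcf7, stood at 0.776, 0.920, 1.04 (0.603 to 1.66) and 32.6 CPM. Like the CD3 chains it was low in Bcl11b+ Cd3g- cells and 31.5-fold lower (19.3 to 54.7) than in Bcl11b+ Cd3g+ cells. Lef1, Ets1, Gfi1, Tcf12 and Id3, an inhibitor of E proteins, were the 5 of 17 measured that were lower there, and none was higher (median log2 -0.24). Of all genes, 4.05% were lower there and 2.63% higher.

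Progenitor regulators are the transcription factors and receptors of stem cells and early progenitors. Over Il2ra+ Bcl11b- cells 9 of 17 measured were lower and none higher (median log2 -0.63), and over Bcl11b+ Cd3g+ cells 10 of 16 were higher and 1 lower (median 0.76). Of all genes, 2.35% were lower in the first comparison and 2.63% higher in the second. Spi1 stood at 183, 162, 82.8 (78.5 to 87.3) and 40.0 CPM from Il2ra- Bcl11b- to Bcl11b+ Cd3g+ cells. Bcl11a, the relative of Bcl11b, was at 169, 144, 70.1 and 35.7 CPM, and Mef2c at 312, 168, 65.2 and 41.4. Cd34, a surface antigen of stem and progenitor cells, was at 381, 172, 66.9 and 34.1 CPM. Lmo2, a bridging factor of stem cell complexes, was low, at 96.3, 28.5, 8.16 and 4.17 CPM. Id2, an inhibitor of E proteins, was the exception, at 22.7, 14.4, 10.6 and 16.25 CPM, lowest in the chosen cells. Lyl1 was at 139, 145, 135 and 79.5 CPM and Nfe2 at 51.9, 77.4, 74.4 and 44.1, and only the Bcl11b+ Cd3g+ cells were lower by 1.5-fold. Kit, the receptor used in every gate, had 80.1, 108, 76.2 and 40.6 CPM, and Flt3, of the earliest progenitors, 50.7, 5.44, 1.77 and 1.15.

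**Figure D3:**
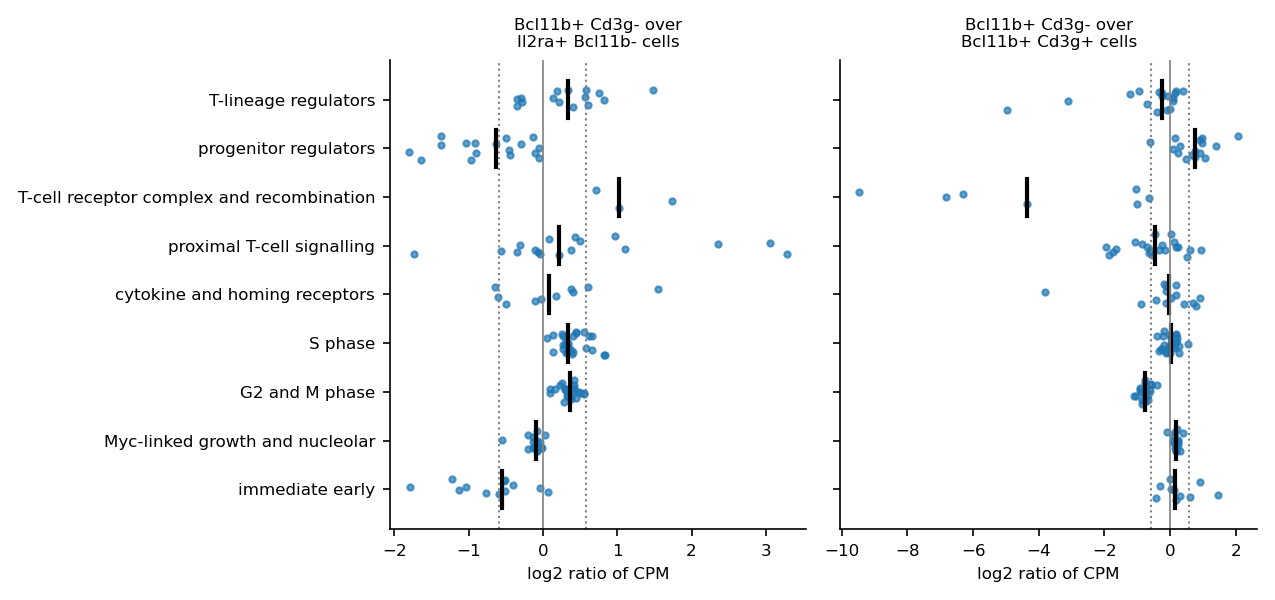
Log2 ratio of CPM (x axis) for each measured gene (points) of 9 gene lists (y axis), Bcl11b+ Cd3g- over Il2ra+ Bcl11b- cells on the left and over Bcl11b+ Cd3g+ cells on the right; black bars are list medians and dotted lines mark a ratio of 1.5 either way. The 2 panels share the Bcl11b+ Cd3g- cells and have different x scales. Progenitor regulators have medians of -0.63 and 0.76, and G2 and M phase genes of 0.37 and -0.76.

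The named genes with the largest ratios over Il2ra+ Bcl11b- cells held several besides the signalling adaptors. Ccdc109b, a subunit of the mitochondrial calcium uniporter, was 21.2-fold higher (13.6 to 34.95), at 32.5 against 1.53 CPM. Gzma, a granzyme of cytotoxic cells, was 12.6-fold higher (7.85 to 21.6) and Sytl2, a vesicle docking protein, 12.4-fold (7.09 to 23.7). Rasgrp1, which activates Ras below the receptor, was 8.82-fold higher (5.51 to 14.9) and Fam169b 7.04-fold (5.72 to 8.75). Gbp4, Tubb3, Nebl and Lig4 were 6.44, 5.97, 4.92 and 4.59-fold higher. Lig4 is the ligase that seals receptor gene joints. All of these but Sytl2 were a further 1.5-fold or more higher in Bcl11b+ Cd3g+ cells, for example Gzma at 118 against 17.4 CPM and Rasgrp1 at 33.5 against 12.9. Sytl2 was at 17.8 against 12.4 CPM.

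On the lower side against Il2ra+ Bcl11b- cells stood Ccnd1 (cyclin D1), 4.44-fold lower (3.08 to 6.54), Cox4i2, 4.29-fold, and Neurl3, 3.90-fold. Il1r1, an interleukin 1 receptor, was 3.51-fold lower (2.61 to 4.77), Lmo2 3.49-fold, the chemokine Ccl3 3.46-fold and the sphingolipid exporter Spns2 3.44-fold. Egr1, an immediate early factor, was 3.44-fold lower (2.66 to 4.48), Evl 3.36-fold, Serpina3g 3.31-fold and Ltc4s, a leukotriene synthase, 3.22-fold. All of these had a UMI in 2.18 to 23.5% of Bcl11b+ Cd3g- cells, against 7.50 to 60.1% of Il2ra+ Bcl11b- cells.

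Against Bcl11b+ Cd3g+ cells the largest higher ratio among the named genes was that of the chemokine Ccl5, 8.83-fold higher (6.48 to 12.3), at 39.5 against 4.48 CPM. Tyrobp, the signalling adaptor DAP12 of innate cells, was 4.85-fold higher (4.38 to 5.37), at 215 against 44.4 CPM, and it was at 526 CPM in Il2ra+ Bcl11b- cells. Hbb-bt, a beta globin, was 5.60-fold higher (5.32 to 5.90), and Qrfp, Itga2b and Tbxas1 were 6.04, 5.19 and 4.29-fold higher. Gfi1b, a repressor of erythroid and megakaryocyte cells, was 4.20-fold higher (3.07 to 5.87). Spns2, Serpina3g, Samhd1, Bex6 and Ifitm1 were 3.35 to 3.91-fold higher.

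Hbb-bt calls for its own values, because single cells carry much of it. It stood at 190, 830, 957 and 171 CPM from Il2ra- Bcl11b- to Bcl11b+ Cd3g+ cells, and 48.1% of Bcl11b+ Cd3g- cells held a UMI, against 47.1% of Il2ra+ Bcl11b-, 24.8% of Il2ra- Bcl11b- and 19.0% of Bcl11b+ Cd3g+ cells. Up to 436 UMIs lay in 1 cell, and 10 cells held 20.0% of the 15706 UMIs. Hba-a1 and Hba-a2, the alpha globins, had no UMI in any of the 4 classes, and Hbb-bs, whose sequence is nearly identical, was at 0.244 CPM, so how reads were split between the beta globins is uncertain. Of the erythroid and megakaryocyte list, 14 of the 826 cells (1.69%) held at least 2 markers among 3000 UMIs and none held 3.

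On the lower side against Bcl11b+ Cd3g+ cells, Slc5a9, a sugar transporter, had 0 UMIs in Bcl11b+ Cd3g- cells and 185 in the other class, at least 105-fold lower with 3 counts as the floor for the class, while the 95% interval starts at 84.9-fold. Beside Cd3d, Cd3e, Ptcra, Lef1 and Rag1 came Mpzl2, an adhesion molecule, 31.2-fold lower (17.5 to 61.3), Arl5c, a small GTPase, 28.9-fold (19.3 to 45.2), and Dgkeos, 29.95-fold. Dgkeos is transcribed opposite another gene, and its counts are uncertain without a statement on strand. H19, an imprinted RNA, was 17.4-fold lower (10.7 to 29.99), Pld4, a nuclease, 16.8-fold (11.1 to 26.5), and Ccr9, the thymus homing receptor, 14.1-fold (9.67 to 21.1). Ccr9 was at 12.9, 0.767, 1.89 and 26.6 CPM along the 4 classes, so it was low in the 2 middle ones.

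Receptors for cytokines and homing signals were mixed. Il7r, the interleukin 7 receptor, stood at 20.2, 47.8, 140 (134 to 145) and 137 CPM. It was 2.92-fold higher (2.67 to 3.19) than in Il2ra+ Bcl11b- cells and within 1.5-fold of Bcl11b+ Cd3g+ cells. Il2ra itself was at 348 CPM (339 to 357) against 308 in Bcl11b+ Cd3g+ cells. Itga4, the integrin alpha 4 chain, was highest of the 4 classes, at 163, 338, 516 (505 to 527) and 387 CPM. Cd44, an adhesion receptor of early progenitors, was at 87.4, 47.1, 30.9 and 18.9 CPM. Of the Notch list, Notch1 (124, 146, 147 and 176 CPM) and its target Hes1 (113, 129, 109 and 111) stayed within 1.5-fold of each neighbour. Dtx1 and Nrarp, 2 other Notch targets, were the 2 of 5 measured that were lower than in Il2ra+ Bcl11b- cells (list median log2 -0.55). Of all genes, 2.35% were lower in that comparison. Notch3 was at 0.609, 2.91, 8.10 and 23.8 CPM and was lower than in Bcl11b+ Cd3g+ cells.

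Survival and cell cycle genes were compared next. Bcl2, an inhibitor of cell death, was at 28.8, 28.6, 74.9 (70.8 to 79.2) and 133 CPM, and was the only 1 of 8 measured Bcl2 family genes past 1.5-fold in each neighbouring comparison. Ccnd3, the D cyclin of thymocytes, was at 116, 147, 292 and 374 CPM, while Ccnd1 was at 27.0, 10.3, 2.32 and 2.92. The CDK inhibitors Cdkn1a, Cdkn2c and Cdkn2d were also higher than in Il2ra+ Bcl11b- cells, with Cdkn1a at 8.42, 23.5, 47.3 and 45.8 CPM. S phase genes were higher in 5 of 28 over Il2ra+ Bcl11b- cells (median log2 0.34), against 2.28% of all genes. The 5 were Rrm2, Cdc6, Uhrf1, Ccne1 and E2f8. None of the 28 was past 1.5-fold over Bcl11b+ Cd3g+ cells (median 0.03). With classes called after thinning, this second median was 0.57 and the first 0.31. At 3000 UMIs per cell, the median count of S phase UMIs was 11 in Bcl11b+ Cd3g- cells. It was 8 in Bcl11b+ Cd3g+, 7 in Il2ra+ Bcl11b- and 5 in Il2ra- Bcl11b- cells. None of 16 nucleolar and growth genes was past 1.5-fold against any of the 3 classes.

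Genes of G2 and M phase, which cells express before and during division, were lower than in Bcl11b+ Cd3g+ cells in 21 of 24 (median log2 -0.76). Of all genes, 4.05% were lower there. Examples are Mki67 at 233 against 372 CPM, Top2a at 448 against 686 and Ccnb1 at 67.7 against 138. With classes called at 3000 UMIs per cell the list median was -0.14, and with cells of 8000 to 25000 UMIs it was -1.26. At 3000 UMIs per cell, 31.0% of Bcl11b+ Cd3g- cells (27.9 to 34.3) held at least 5 UMIs of the list, against 39.1% of Bcl11b+ Cd3g+ (35.1 to 43.2), 24.7% of Il2ra+ Bcl11b- and 28.9% of Il2ra- Bcl11b- cells. Chosen cells with at least 5 such UMIs had a median depth of 25828 UMIs, against 14778 in those with none. Depth moves with this list, and its part in the difference was not tested.

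Immediate early genes, which respond within minutes to stimulation and to tissue handling, were lower in the Bcl11b+ Cd3g- cells than in Il2ra+ Bcl11b- cells in 6 of 12 (median log2 -0.56) and than in Il2ra- Bcl11b- cells in 9 of 12. Of all genes, 2.35% and 5.58% were lower in these 2 comparisons. Over Bcl11b+ Cd3g+ cells 3 of 10 measured were higher (Ier2, Ier3 and Zfp36) and none lower (median log2 0.15), against 2.63% and 4.05% of all genes. Ier3 was at 86.4, 95.5, 41.1 and 15 CPM and Egr1 at 19.2, 17.2, 4.996 and 6.15. Btg2, a brake on proliferation, was lowest in the chosen cells, at 152, 106, 62.1 and 84.3 CPM. Whether handling has a part in these values was not tested.

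Few genes at the level needed here had an extreme in the Bcl11b+ Cd3g- cells at least 1.5-fold past every other class. By a rule set after seeing the values, 38 genes counted as at least 1.2-fold above each of the other 3 classes. A further 46 counted as at least 1.2-fold below. For above, the CPM and share of cells set for a counted gene were needed only in the chosen cells. For below, they were needed in all 3 other classes. Ccnd1 and Egr1 were 1.2-fold below each class but missed that CPM in Bcl11b+ Cd3g+ cells. So 46 is not the number of all such genes, and 38 and 46 cannot be compared. At 1.5-fold there was 1 above, 4930519L02Rik, at 54.7 CPM against 5.54, 18.9 and 34.4, and 2 below. These were Cd82, a tetraspanin, at 16.8 CPM against 59.8, 41.1 and 35.0, and Zfp36l1, an RNA-binding protein that promotes decay of target messages, at 19.6 against 44.4, 35.0 and 36.6. Itga4, Ung, a DNA repair glycosylase, and Cd5, which dampens receptor signals, were among the genes above by 1.2-fold. Junb, Btg2, Id2 and Txnip were among those below. The number of genes open to this rule was not counted, so no share is given. Of the 175 genes higher than in Il2ra+ Bcl11b- cells, 74 (42.3%) were lower than in Bcl11b+ Cd3g+ cells, against 4.05% of all genes. A further 98 (56.0%) were counted in neither direction there and 3 were higher. Of the 181 lower, 59 (32.6%) were higher than in Bcl11b+ Cd3g+ cells, against 2.63%, 119 (65.7%) were counted in neither direction and 3 were lower. Both comparisons use the same chosen cells and classes cut on Bcl11b and Cd3g. The shares of all genes are thus no baseline for genes already picked as different, and these shares are description only. How many genes in all lay between their neighbours was not counted.

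Against the mixture of all other control cells, the largest higher ratios were those of Mpp4 (3.05-fold, 2.46 to 3.79), Sytl2 (2.66), Ddc (2.66), Fgf3 (2.51), Il7r (2.46) and Esm1 (2.46). Fgf3, a fibroblast growth factor, was at 6.98, 86.0, 102 and 42.5 CPM, which is level with the Il2ra+ Bcl11b- cells. Beside the receptor genes, the largest lower ratios were those of Hmga2, a chromatin protein of stem cells (16.0-fold lower, 9.91 to 27.6), Flt3 (13.9) and Arl5c (8.13). Against Il2ra- Bcl11b- cells the 6 largest higher ratios, of Tubb3, Rasgrp1, Themis, Ccdc109b, Fam169b and Sytl2, were 44.7 to 92.9-fold and rest on 3 to 21 UMIs in that class. The 6 largest lower ratios there, of Hmga2, Flt3, Csf1r, Gramd3, Siglece and Meis1, were 14.6 to 32.9-fold.

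The chosen cells differed among themselves with the amount of Bcl11b. Each was thinned to 3000 UMIs, of which 320 cells then held 0 Bcl11b UMIs, 261 held 1, 128 held 2 and 117 held 3 or more. Along these 4 steps Skap1 was at 56.2, 84.8, 137 and 175 CPM, Thy1 at 45.5, 65.5, 82.4 and 111, Ets1 at 34.6, 46.6, 56.4 and 82.2 and Dntt at 402, 504, 690 and 964. Tyrobp was at 268, 219, 139 and 101 CPM, Spi1 at 100.5, 77.9, 62.8 and 54.8 and Bcl11a at 82.6, 69.5, 55.1 and 44.0. The steps were cut on Bcl11b, a gene of the choice that was also higher in Bcl11b+ Cd3g+ cells, so what follows is description only. These 7 genes, picked after their values were seen, lay nearer to their level in Bcl11b+ Cd3g+ cells where Bcl11b was higher. Others lay farther from it: Itga4 was at 482, 518, 521 and 630.0 CPM against 387 in Bcl11b+ Cd3g+ cells, and Cpa3 at 474, 600.4, 611 and 835 against 501. Il7r went past its level there, at 115, 139, 161 and 205 CPM against 137. Il2ra, at 314, 368, 390 and 373 CPM, and Cd24a, at 216.6, 249.3, 242.2 and 253.5, changed less. Cd3d stayed between 0.398 and 0.562 CPM and Ptcra at or under 0.996 in every step. All of these cells were chosen for 0 Cd3g UMIs, and both genes were much higher in Bcl11b+ Cd3g+ cells, which the choice left out. Their low level here therefore does not show how they relate to Bcl11b. Median full depth was 20922, 18096, 17852 and 15111 UMIs in the 4 steps, and its part in these values was not tested.

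**Figure D4:**
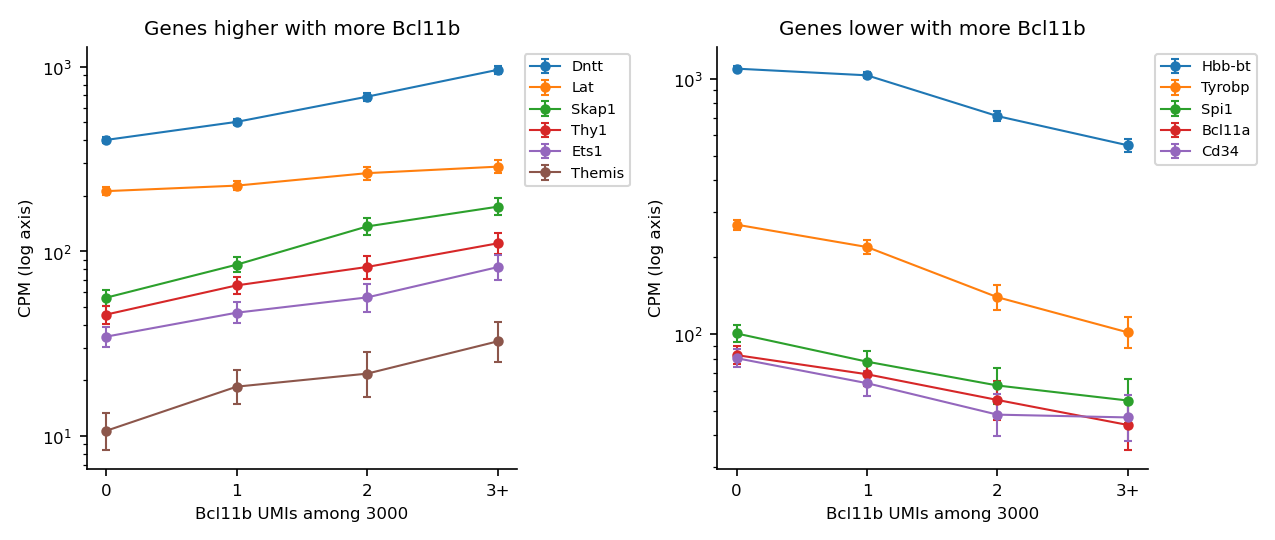
CPM (log axis, 95% Poisson intervals) of genes summed over Bcl11b+ Cd3g- cells with 0, 1, 2 or 3 and more Bcl11b UMIs among 3000 (x axis; 320, 261, 128 and 117 cells). Skap1 goes from 56.2 to 175 CPM and Tyrobp from 268 to 101.

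At the edge of the Bcl11b rule, the 136 cells with exactly 1 Bcl11b UMI had Skap1 at 26.1 CPM, Thy1 at 22.4, Spi1 at 130 and Tyrobp at 412. The 748 cells just outside, with Il2ra but neither Bcl11b nor Cd3g, had 9.41, 11.7, 163 and 528. Chosen cells with 10 or more Bcl11b UMIs had 154, 98.9, 53.9 and 103. At the edge of the Cd3g rule, the 106 Bcl11b+ cells with exactly 1 Cd3g UMI had Cd3d at 2.24 CPM, Cd3e at 15.2 and Lef1 at 3.14. In these Ptcra had 0 UMIs, which allows up to 1.34 CPM. The 400 cells with 5 or more Cd3g UMIs had Cd3d at 573, Cd3e at 259, Lef1 at 52.5 and Ptcra at 127, and a median depth of only 10578 UMIs. Skap1 stood at 90.4 in the chosen cells, 207 with 1, 270 with 2 to 4 and 319 CPM with 5 or more Cd3g UMIs. At the depth rule, 9 chosen cells held 3301 to 4964 UMIs, and 9 control cells under 3000 UMIs met the Bcl11b and Cd3g rule. In Cd3d, Cd3e, Lef1 and Ptcra the cells with 1 Cd3g UMI lay nearer to the chosen cells than to those with 5 or more, and in Skap1 nearer to the latter. These groups were cut on Cd3g, a gene of the choice, so this is description only.

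**Figure D5:**
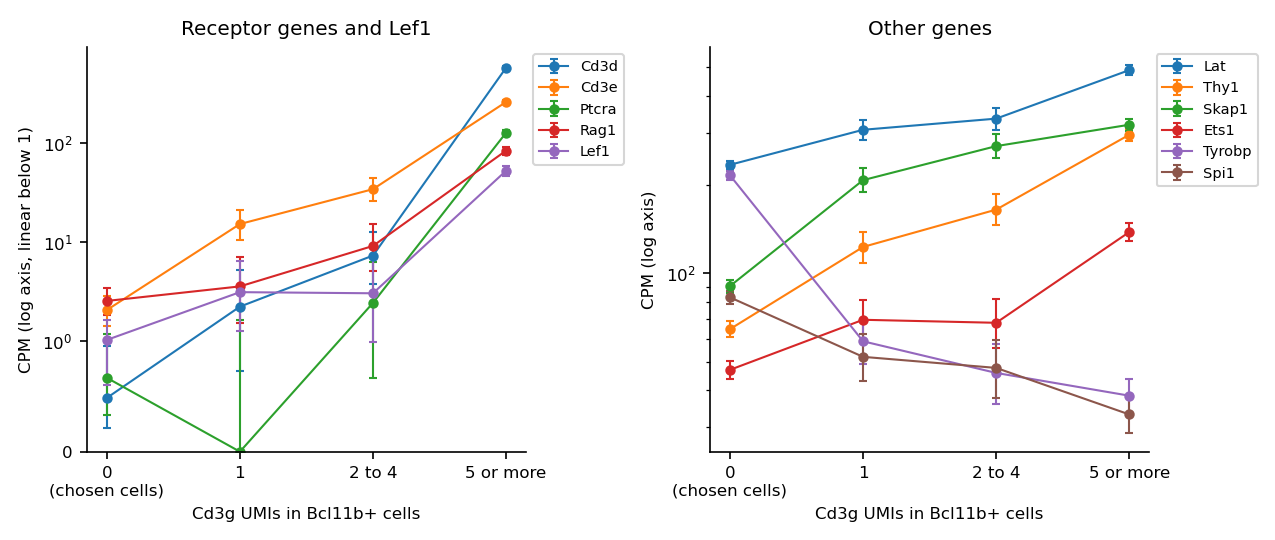
CPM (log axis, linear under 1 on the left; 95% Poisson intervals) in Bcl11b+ control cells by Cd3g UMIs in the cell (x axis; 0 are the chosen cells, then 106, 74 and 400 cells). Cd3d is at 0.487, 2.24, 7.34 and 573 CPM, while Skap1 is at 207 CPM in cells with 1 Cd3g UMI.

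RNA of other cell types was seen in shares of the chosen cells that differed widely between marker lists. Of the 14 granulocyte and monocyte markers, 34 cells (4.12%, 2.87 to 5.70) held at least 2 among 3000 UMIs and 8 held at least 3, against 16.8% with at least 2 in Il2ra+ Bcl11b- and 2.07% in Bcl11b+ Cd3g+ cells. The summed level of that list was 365 CPM, of which 70.3% lay in 10 cells, and for the neutrophil enzymes Elane and Prtn3 those shares were 98.7% and 97.0%. Prtn3 counted as 2.31-fold higher than in Il2ra+ Bcl11b- cells, and without cells with 3 markers of another type its log2 ratio was -1.14. Dendritic markers were at 101 CPM (5 cells with at least 2, Siglech, Clec9a, Xcr1 and Cd209a at 0) and B cell markers at 43.4 (4 cells, Pax5 and Ms4a1 at 0). Of the natural killer and innate lymphoid list, 38.3% of cells held at least 2 markers and 97 cells at least 3. At least 2 were held by 62.9% of Il2ra+ Bcl11b- and 25.2% of Bcl11b+ Cd3g+ cells. Ncr1, Eomes, Tbx21 and Il2rb were at 0 in the chosen cells. Over Bcl11b+ Cd3g+ cells 3 of 6 measured were higher (Fcer1g, Tyrobp and Cd160) and 2 lower (Gzma and Id2), against 2.63% and 4.05% of all genes. Over Il2ra+ Bcl11b- cells 1 of 7 was higher (Gzma) and 3 lower (Gzmb, Tyrobp and Cd160), against 2.28% and 2.35%. For mast cells, Cpa3 made up nearly all of the list, and Mcpt4, Cma1, Fcer1a, Prss34, Tpsb2 and Tpsab1 were at 0. Gamma delta T cell markers were at 15.8 CPM (1 cell with at least 2) and thymic stromal markers at 90.0 (2 cells, 6 of 8 at 0). Later thymocyte markers were seen at least 2 together in 9.93% of the chosen cells, with Cd8b1 at 0, against 43.4% of Bcl11b+ Cd3g+ cells. Cells holding 3 markers of the granulocyte and monocyte, B cell, dendritic, erythroid or stromal list were left out as an alternative, while cells with natural killer, innate lymphoid or later thymocyte markers stayed in. Then 88.9 to 99.4% of the genes counted in each direction of the 4 comparisons of classes were still counted.

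Chosen cells without an Il2ra UMI numbered 42. They summed to only 678552 UMIs, and their median depth was 14282 UMIs against 18669 in the 784 others. Granulocyte and monocyte markers stood at 3096 CPM in them against 248, and dendritic markers at 1043 against 60.4. A few cells carry these sums: without cells with 3 such markers, which leaves 40 of the 42, the log2 ratio of Prtn3 goes from -4.75 to -1.42 and the granulocyte list median from -3.23 to -0.75. Ctsg had a UMI in 16.7% of the cells without Il2ra and 17.3% of those with it. Of 7924 genes compared, 600 (7.57%) were higher in the cells with Il2ra and 689 (8.7%) lower, many from few UMIs. With classes called after thinning, only 103 (17.2%) and 91 (13.2%) of these genes were still counted. Lower in the cells with Il2ra were Anxa3 (31.3-fold, 17.6 to 56.1), Prtn3 (26.9), Fscn1 (13.5), Ctss (12.4), Ifi30 (11.1) and Ctsg (10.4). The 6 largest higher ratios, of Zranb3, Gtf2e1, Rnf141, Hist1h2be, Dimt1 and Erlin1, rest on 1 to 3 UMIs in the 42 cells: that of Zranb3 was 7.37 with an interval of 1.31 to 293. Without cells with 3 markers of another type, Ctsg and Ifi30 were on the other side, with log2 ratios of 0.34 and 0.95. Lat was alike in both, at 234 CPM with and 224 without Il2ra, and Skap1 stood at 89.0 and 124.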

How the data were processed

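Thymus cells were sorted, marked with hashtag antibodies and sequenced as 1 droplet library. The authors deposited raw UMI counts per gene and cell with a table naming each barcode's sort. Reads were processed with Cell Ranger 3.0 against mm10, per the submitters' processing notes. Control cells with at least 3000 UMIs were kept, classes were set on raw counts, and UMIs were summed per class. The members and gene lists were chosen with earlier results of these data known. Genes named are the 12 largest ratios each way against the Il2ra+ Bcl11b- and Bcl11b+ Cd3g+ classes, 6 each way in the other comparisons, list members and gate genes. Predicted, mitochondrial and ribosomal protein genes were counted but not named by that rule. Genes extreme in the chosen cells were named after their values were seen. For shares, cells were thinned to 3000 UMIs. The ratios and intervals were tested on simulated class sums without variation between cells, where every gene met the rule on the share of cells. That test cannot show how they behave where few cells carry the RNA. Alternatives were other scalings (edgeR 4.0.16 TMM factors), depths, thresholds and cell filters. Python 3.11.15, numpy 2.4.6, pandas 2.3.3, scipy 1.17.1 and R 4.3.3 were used. Of 27998 gene IDs, 27645 matched GENCODE M21.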

Additional observations from a re-analysis of the deposited data

Results flagged for a closer look

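Barcodes that the deposited table assigns to no sort entered no comparison. Of the 341 with at least 3000 UMIs, 65 (19.1%, 15.03 to 23.6) held a Bcl11b UMI and no Cd3g UMI, a share above that in each of the 4 sorts gated against the Bcl11b reporter (0.345 to 1.94%) and below the 25.4% of the control sort. Their median depth was 29444 UMIs, and 313 of all 345 unassigned barcodes carried 2 hashtags. The sort each of the 65 came from is unknown.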

How the results depend on the processing

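Counts of genes past the size rule moved with depth and thresholds, and are given as higher and lower. Against all other control cells (113 and 214) they were 235 and 431 with cells thinned to 3000 UMIs, 317 and 475 with classes called after thinning, 207 and 361 in cells with no UMI of G2 or M phase, and 21 and 89 at a ratio of 2. The lower count was 339 at 5 CPM, and the higher count 63 against the mean of the 3 classes. Against Il2ra+ Bcl11b- cells (175 and 181) they were 460 and 473, 482 and 512, 286 and 331, and 72 and 62 under the same first 4 settings. The lower count was 301 at 5 CPM and 283 with totals without mitochondrial and ribosomal protein genes. Against Bcl11b+ Cd3g+ cells (202 and 311) they were 574 and 777, 856 and 1090, 587 and 779, and 50 and 101, with 328 and 513 at equal weight per cell, and 315 higher at 5 CPM. Against Il2ra- Bcl11b- cells (410 and 434) they were 644 and 695 thinned and 159 and 203 at a ratio of 2. Between chosen cells with and without Il2ra (600 and 689) they were 1905 and 1592 thinned, 1284 and 1387 without a G2 or M phase UMI, and 164 and 192 at a ratio of 2, with 910 higher at 5 CPM. With classes called after thinning, 64.0 to 87.9% of the genes counted in the first 4 comparisons were still counted. Thinning leaves fewer UMIs per gene; the cause of the other moves was not tested.

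Of single-gene ratios under alternatives, 4794 stayed within their counting interval, 1538 moved and 22 changed from a called direction to the other sign. Of 1062 list medians, to which no call applies, 806 stayed and 256 moved. Other thresholds for CPM, share of cells or ratio cannot alter a ratio or median, and a hashtag filter removed no cell. Values under these settings stayed by construction and are part of the 4794 and 806. Of the 1062 medians, 77 changed sign, 29 of them between chosen cells with and without Il2ra. There the G2 and M phase median went from 0.32 to -0.318 in cells of 8000 to 25000 UMIs and -0.091 with classes called after thinning, where that of S phase was -0.037. The log2 ratio of Prtn3 over Il2ra+ Bcl11b- cells became -0.24 with classes called after thinning, -1.24 in cells of 8000 to 25000 UMIs, -2.65 without the 5% of cells with most UMIs, -1.14 without cells with 3 markers of another type and -1.30 without a G2 or M phase UMI. Over Bcl11b+ Cd3g+ cells it became -0.056 at 8000 to 25000 UMIs, -0.093 with at least 2 Bcl11b UMIs, -0.12 without cells with 3 markers and -1.12 without a G2 or M phase UMI. Top2a over Bcl11b+ Cd3g+ cells became 0.001 with classes called after thinning and 0.11 without a G2 or M phase UMI, where Ccnb1 was 0.53 and Mki67 0.10. Over Il2ra- Bcl11b- cells Gzma became -0.34 at equal weight and -0.59 thinned, and Itga2b -0.365 with classes called after thinning. Between cells with and without Il2ra, Ifi30 became 0.71 and Zranb3 -0.19 with classes called after thinning, Ifi30 0.95 without cells with 3 markers, and Ctsg 0.10 at 8000 to 25000 UMIs, 0.45 without the deepest 5% and 0.34 without cells with 3 markers. The cause was not tested. No paired analysis was possible because each sort is 1 sample. With 1 control sort no error between animals or sorts can be given.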
